A study of Mus musculus with 30 samples.

Results

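Expression of 9 genes that encode ion channels and calcium handling proteins of vascular smooth muscle was examined in the aorta and the kidney of mice fed a standard-fat diet (SFD) or a high-fat diet (HFD), with or without the epidermal growth factor receptor (EGFR) in vascular smooth muscle cells. The genes were Kcnma1, Kcnmb1, Kcnj8, Abcc9, Cacna1c, Ryr2, Itpr1, Atp2a2 and Pln, chosen by name among the 41128 genes of the deposited counts, and all 9 were found in both tissues. All 9 also passed the filter on low counts in both tissues, among 14796 aorta genes and 15034 kidney genes tested. RNA-seq counts of 14 aortae (3 WT-SFD, 4 WT-HFD, 3 KO-SFD and 4 KO-HFD) and of 16 kidneys (4 in each group) were used here, 30 libraries of 27 mice, of which 3 gave both tissues. The SFD aorta groups were thus smaller here than the equal group sizes the study describes. The mice were male and labelled as strain C57Bl6J, whereas the study's methods name C57BL/6 for the floxed line and C57BL/6N for the Cre line. KO mice carried floxed Egfr and a Cre recombinase that is induced by tamoxifen and driven by the smooth muscle promoter Smmhc. WT mice carried the Cre but no loxP sites. Both genotypes received tamoxifen, and the diets were given for 18 weeks from about 6 weeks of age. Within a tissue each library came from a different mouse. The aortae were freed of adjacent fat and sequenced at a university unit, and the kidneys were sequenced by a company, so that tissue and sequencing facility cannot be told apart. Each tissue was therefore fitted on its own.

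The contraction of a vascular smooth muscle cell is set by its cytosolic calcium, and the 9 genes cover entry, storage and electrical brakes of that signal. Cacna1c encodes the pore of the L-type calcium channel, through which depolarisation admits calcium. Itpr1 and Ryr2 encode the inositol trisphosphate receptor and the ryanodine receptor, the release channels of the sarcoplasmic reticulum. Atp2a2 encodes the pump SERCA2, which refills this store, and Pln encodes phospholamban, its inhibitor. Kcnma1 and Kcnmb1 encode the pore and the β1 subunit of the large-conductance calcium-activated potassium (BK) channel, which opens on calcium sparks and hyperpolarises the cell. Kcnj8 (Kir6.1) and Abcc9 (SUR2) form the ATP-sensitive potassium channel of vascular smooth muscle and pericytes, a target of vasodilator drugs. Values are given in FPM, the fragments counted per gene scaled to a common library size with TMM factors, and, to compare genes with each other, in FPM per kb of exon (FPKM).

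The targeted gene and cell type markers were read first. Egfr was at 26.8 to 40.6 FPM in the 7 KO aortae and at 39.5 to 65.1 FPM in the 7 WT aortae. It fell in KO aortae by 0.67 on the log2 scale over both diets (standard error 0.109, edgeR adjusted p = 0.0132). In whole kidney Egfr was at 36.9 to 60.8 FPM and its KO against WT value was -0.00 (edgeR adjusted p = 0.998), with smooth muscle a small share of the organ. Of 13 smooth muscle markers, 11 were tested in the aorta. Acta2, the actin of smooth muscle, was the most abundant with 4235 to 8745 FPM, and Myh11, the smooth muscle myosin, was at 4015 to 7283 FPM in the aorta and at 13.6 to 26.0 FPM in the kidney. The summed level of the 13 markers was 13034 to 23275 FPM in the aorta and 277 to 394 FPM in the kidney. Tagln and Cnn1, both typical of smooth muscle, were listed at 0 in every library of both tissues, so that a gene listed at 0 was not read as absent.

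Some SFD aortae stood apart by fat markers. The summed level of 12 adipocyte markers reached 4542, 3212 and 160 FPM among WT-SFD aortae and 2726, 984 and 167 FPM among KO-SFD aortae. It was 174, 175, 286 and 269 FPM in WT-HFD and 136, 222, 189 and 105 FPM in KO-HFD aortae. Replicates 1 and 2 of WT-SFD and of KO-SFD were thus above every other aorta, also for adiponectin (Adipoq), which was at 195 and 148 FPM and at 111 and 47.8 FPM in these 4 libraries and at 1.37 to 14.8 FPM in the other 10. Fabp4 was the most abundant gene of the list, and none of the 12 genes was listed at 0. Of the 12 adipocyte markers, 11 were called lower on HFD over both genotypes. The summed level of 12 cardiac markers reached 889 FPM in WT-SFD replicate 2, 130 FPM in KO-SFD replicate 2 and 24.7 to 55.8 FPM in the other 12 aortae. Ttn was the most abundant cardiac marker, Myh6, the cardiac myosin, reached 248 FPM in WT-SFD replicate 2, and Sln was listed at 0. The median over the members is given with and without the fat-rich libraries in each aorta comparison. In RNA from whole tissue, fewer cells of a type and less RNA per cell cannot be told apart.

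Levels per length placed the members in a wide order in the aorta. Atp2a2 came first with 80.8 ± 9.59 FPKM (mean ± SD, n = 14), followed by Abcc9 with 49.0 ± 8.48 FPKM and Kcnmb1 with 42.7 ± 7.06 FPKM. Itpr1 had 22.1 ± 1.94 FPKM, Cacna1c 8.75 ± 1.44 FPKM, Kcnj8 7.32 ± 1.197 FPKM and Kcnma1 7.11 ± 1.11 FPKM. Ryr2 had 4.88 ± 1.14 FPKM and Pln, the inhibitor of the first-ranked pump, came last with 2.40 ± 1.66 FPKM. The order did not hold in every library. Abcc9 was above Kcnmb1 in 11 of 14 aortae and Kcnj8 above Kcnma1 in 10 of 14, so that these neighbours were not separated beyond their spread. The partners of each potassium channel differed in level: the β1 subunit gene Kcnmb1 was above its pore gene Kcnma1, and the regulatory subunit gene Abcc9 above its pore gene Kcnj8. The length used is that of all annotated exons together, 17 kb for Kcnma1 and 4.19 kb for Kcnmb1, and the difference of this pair depends on it. In FPM the WT-SFD means of Kcnma1 and Kcnmb1 were 100 and 154 in the aorta. They were 1.69 and 0.932 in the kidney, where the order in FPKM is the reverse.

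In the kidney the order was different. Atp2a2 was again first with 51.1 ± 7.42 FPKM (mean ± SD, n = 16), followed by Itpr1 with 13.2 ± 2.31 FPKM, Kcnj8 with 6.05 ± 1.21 FPKM and Abcc9 with 2.18 ± 0.617 FPKM. Pln had 0.460 ± 0.119 FPKM, Kcnmb1 0.248 ± 0.0988 FPKM, Cacna1c 0.119 ± 0.0337 FPKM, Kcnma1 0.0886 ± 0.0310 FPKM and Ryr2 0.0331 ± 0.0175 FPKM. Cacna1c was above Kcnma1 in 11 of 16 kidneys, and every other member was above the next in all 16. Kcnj8 was above its partner Abcc9 here, the reverse of the aorta. The level in the aorta divided by that in the kidney was 172 for Kcnmb1, 148 for Ryr2, 80.3 for Kcnma1, 73.6 for Cacna1c and 22.4 for Abcc9. It was 5.22 for Pln, 1.67 for Itpr1, 1.58 for Atp2a2 and 1.21 for Kcnj8. These ratios describe the libraries and were not tested. The depth behind the low kidney values was small, with 6 to 51 counts per library for Ryr2, 7 to 48 for Kcnmb1, 11 to 52 for Kcnma1, 16 to 37 for Pln and 28 to 108 for Cacna1c.

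**Figure D1:**
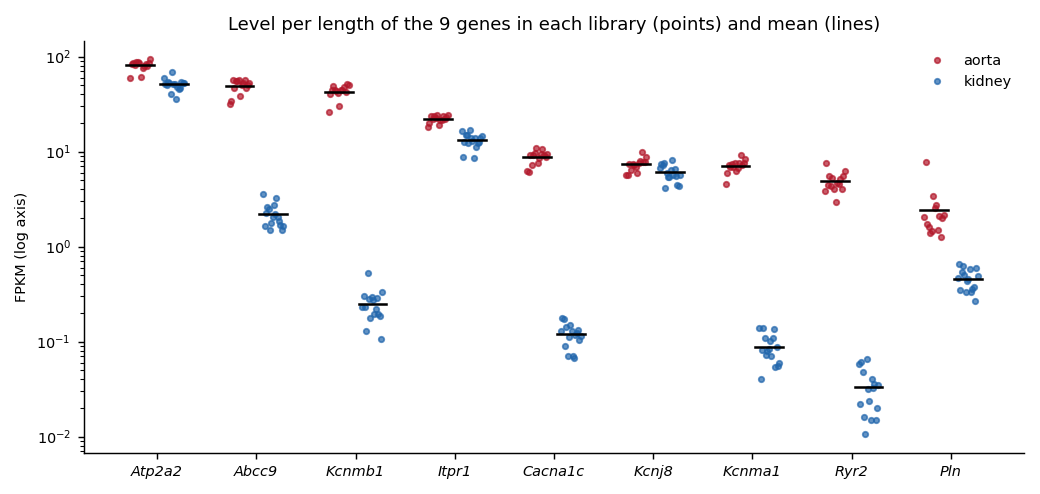
Level of each gene in FPKM (log axis) in 14 aortae and 16 kidneys, with a point per library and a line at the mean. Kcnmb1, Ryr2, Kcnma1 and Cacna1c are 73.6 to 172 times higher in the aorta, whereas the ratio of the tissues is 1.21 to 1.67 for Kcnj8, Atp2a2 and Itpr1.

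The first comparison asked what HFD did to the genes in the aorta. No member passed the test in WT (0 of 9), where 0% of all genes tested were called, or in KO (0 of 9), where 0% were also called. Over both genotypes 0 of 9 members were called, against 3.95% of all genes. In this average 8 members were higher and 1 was lower on HFD, with a median log2 fold change of 0.207 over the members and of -0.00478 over all genes tested. The unadjusted p was under 0.05 for 6 members (Kcnma1, Kcnmb1, Abcc9, Cacna1c, Itpr1 and Atp2a2) and for 18.8% of all genes. DESeq2 also called none of the 9 in any aorta comparison.

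Kcnma1, the BK channel pore, was at 77.5, 100.3 and 124 FPM in WT-SFD and at 117, 126, 117 and 130 FPM in WT-HFD aortae. In KO it was at 105, 115 and 128 FPM on SFD and at 158, 123, 130 and 141 FPM on HFD. Within each genotype the diets overlapped through the highest SFD aorta. On HFD over both genotypes its log2 fold change was 0.27 (standard error 0.0971, 95% CI 0.05 to 0.48, edgeR adjusted p = 0.144). Kcnmb1, the β1 subunit that raises the channel's calcium sensitivity, was at 109, 167 and 186 FPM in WT-SFD, at 208, 186, 180 and 172 FPM in WT-HFD, at 126, 188 and 185 FPM in KO-SFD and at 198, 178, 215 and 208 FPM in KO-HFD aortae. Replicate 1 of each SFD group was the lowest and the other SFD aortae lay within or close to the range of the HFD aortae. Its log2 fold change was 0.27 as well (edgeR adjusted p = 0.237).

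Kcnj8, the pore of the ATP-sensitive potassium channel, was low in the aorta in counts (105 to 250 per library). It was at 14.3, 14.4 and 18.9 FPM in WT-SFD, at 16.2, 18.9, 18.2 and 17.5 FPM in WT-HFD, at 15.1, 19.5 and 20.3 FPM in KO-SFD and at 25.2, 19.9, 19.998 and 22.4 FPM in KO-HFD aortae. The diets overlapped in both genotypes, with a log2 fold change of 0.21 (95% CI -0.02 to 0.44, edgeR adjusted p = 0.301). Abcc9, its sulfonylurea receptor partner, was at 268, 284 and 470 FPM in WT-SFD and at 394, 469, 463 and 476 FPM in WT-HFD aortae. In KO it was at 323, 421 and 439 FPM on SFD and at 480, 393, 420 and 441 FPM on HFD. The 2 low WT-SFD aortae were those with high adipocyte markers, whereas WT-SFD replicate 3 lay among the HFD aortae. On HFD Abcc9 had a log2 fold change of 0.40 in WT (standard error 0.175, 95% CI 0.01 to 0.79, edgeR adjusted p = 0.251) and 0.27 over both genotypes (edgeR adjusted p = 0.251).

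Cacna1c, the L-type channel pore, was at 133, 131 and 196 FPM in WT-SFD, at 154, 196, 203 and 233 FPM in WT-HFD, at 162, 180 and 200.1 FPM in KO-SFD and at 223, 197, 188 and 201 FPM in KO-HFD aortae. Again replicate 3 of WT-SFD lay among the HFD aortae and the other 2 lay below them. Cacna1c had a log2 fold change of 0.36 in WT (edgeR adjusted p = 0.257) and 0.26 over both genotypes (edgeR adjusted p = 0.214).

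Among the genes of the store, Itpr1, the inositol trisphosphate receptor, had the smallest SD relative to its mean of the 9 members in the aorta (8.80%). It was at 329, 366 and 432 FPM in WT-SFD, at 405, 431, 416 and 443 FPM in WT-HFD, at 346, 394 and 399 FPM in KO-SFD and at 430, 400.4, 421 and 445 FPM in KO-HFD aortae. All 4 KO-HFD aortae lay above all 3 KO-SFD aortae, by a narrow gap, with a log2 fold change in KO of 0.16 (edgeR adjusted p = 0.734). Atp2a2, the SERCA2 pump, was at 361, 511 and 521 FPM in WT-SFD and at 496, 539, 529 and 522 FPM in WT-HFD aortae. In KO it was at 375, 465 and 479 FPM on SFD and at 507, 485, 519 and 567 FPM on HFD, again without overlap (log2 fold change 0.24, edgeR adjusted p = 0.672). Itpr1 and Atp2a2 were the members without overlap between the diets in KO, and 7.04% of all genes tested had none. In WT 0 of 9 members were without overlap, against 8.96% of all genes. Over both genotypes the log2 fold change was 0.17 for Itpr1 (edgeR adjusted p = 0.235) and 0.20 for Atp2a2 (edgeR adjusted p = 0.249).

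Ryr2, the ryanodine receptor of calcium sparks, was at 111, 216 and 130 FPM in WT-SFD, at 158, 126, 153 and 116 FPM in WT-HFD, at 84.5, 136 and 131 FPM in KO-SFD and at 148, 115, 160 and 182 FPM in KO-HFD aortae. The highest value was in WT-SFD replicate 2, the aorta with the highest cardiac markers. The log2 fold change on HFD was -0.14 in WT and 0.37 in KO (edgeR adjusted p = 0.811 and 0.709). Pln, the SERCA inhibitor, was at 5.60, 21.5 and 4.76 FPM in WT-SFD, at 4.49, 3.82, 4.07 and 9.33 FPM in WT-HFD, at 6.97, 7.52 and 4.08 FPM in KO-SFD and at 5.75, 3.47, 5.52 and 5.88 FPM in KO-HFD aortae. The same WT-SFD replicate 2 was far above the rest, and Pln is also strongly expressed in heart muscle. For Pln on HFD in WT the log2 fold change was -1.02 (95% CI -2.04 to 0.01, edgeR adjusted p = 0.272) with this library and 0.05 without it. That of Ryr2 in WT was 0.21 without it.

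**Figure D2:**
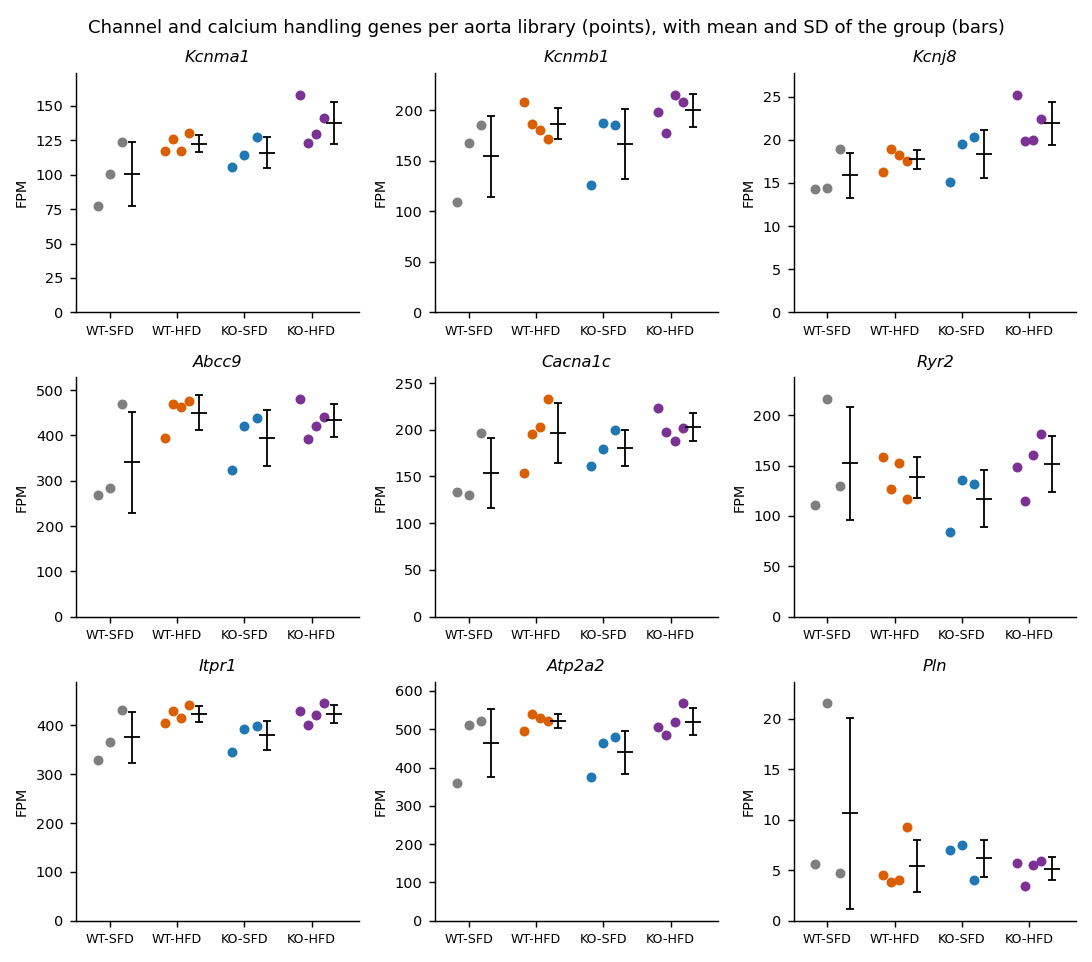
FPM of the 9 genes in each of the 14 aortae, by genotype and diet, with a point per library and the mean and SD of each group as bars. The SFD groups spread more widely than the HFD groups for most genes, and in Pln a single WT-SFD aorta reaches 21.5 FPM.

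The aorta values of most members moved with the markers of fat and of smooth muscle. Over the 14 aortae Pearson's r between a member and the mean of the adipocyte markers was -0.90 for Itpr1, -0.86 for Abcc9 and Kcnma1, -0.82 for Kcnmb1, -0.79 for Kcnj8, -0.76 for Cacna1c and -0.75 for Atp2a2. It was -0.25 for Ryr2 and 0.57 for Pln. With the mean of the smooth muscle markers r was 0.922 for Itpr1, 0.902 for Kcnmb1, 0.886 for Kcnma1, 0.857 for Abcc9 and Atp2a2, 0.787 for Cacna1c and 0.779 for Kcnj8, and it was 0.422 for Ryr2 and -0.213 for Pln. These points share their libraries, 4 of which were fat-rich, and are a description. The smooth muscle markers themselves had a median log2 fold change of 0.25 on HFD over both genotypes, close to the 0.207 of the members, with 0 of 11 called. Without the 4 fat-rich aortae the median over the members was 0.0499, with the adipocyte marker mean as a covariate 0.0318, and with the smooth muscle marker mean as a covariate 0.0214. In WT alone the median was 0.174 with the fat-rich aortae and 0.00286 without them, and in KO alone 0.240 and 0.107. On library totals in place of TMM factors the median of all genes moved by 0.111 in WT and by -0.109 in KO, and that of the members was 0.282 and 0.118. Without the 4 fat-rich aortae the log2 fold change on HFD over both genotypes was 0.05 for Kcnma1, -0.04 for Abcc9 and 0.03 for Itpr1. That setting leaves 1 aorta in each SFD group, whose spread is then taken from the HFD groups. WT-SFD replicate 3, the aorta of that group with low fat markers, decided the calls. Without it Abcc9 (log2 fold change 0.71, edgeR adjusted p = 0.0034), Cacna1c (0.58, edgeR adjusted p = 0.0159) and Kcnma1 (0.46, edgeR adjusted p = 0.0314) passed the test in WT, where the remaining SFD aortae were both fat-rich.

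**Figure D3:**
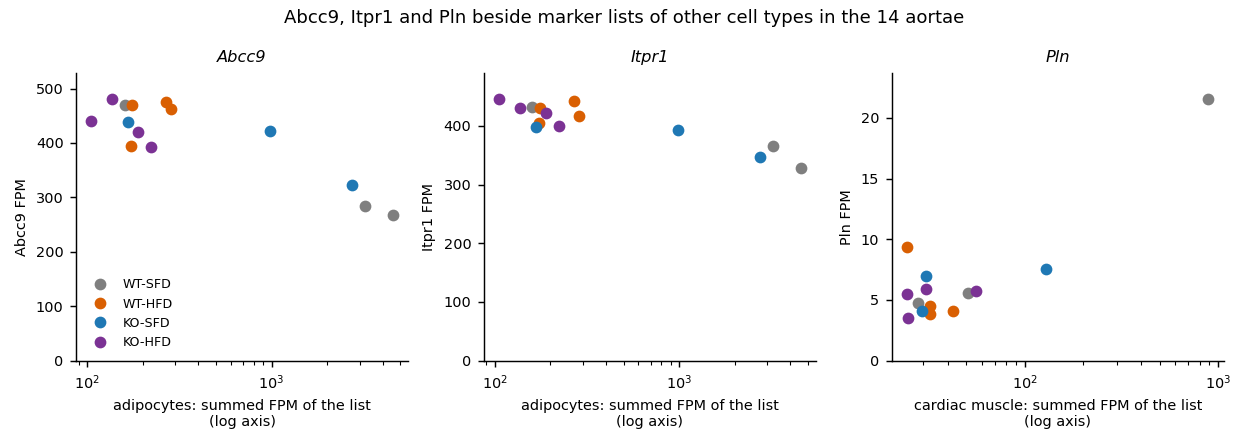
FPM of Abcc9 and Itpr1 against the summed FPM of 12 adipocyte markers (log axis), and FPM of Pln against the summed FPM of 12 cardiac markers (log axis), with a point for each of 14 aortae. The lowest Abcc9 and Itpr1 values lie at the highest adipocyte sums, and the highest Pln value lies at the highest cardiac sum.

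The second comparison asked whether the deletion of Egfr in smooth muscle went with other levels of the genes in the aorta. None of the 9 members was called on SFD or on HFD, against 0.0811% of all genes in each case, and none over both diets, against 0.196%. The median log2 fold change of the members in KO against WT was 0.111 on SFD, 0.0449 on HFD and 0.0786 over both diets, and -0.0255, -0.00749 and -0.0131 over all genes. Without the 4 fat-rich aortae, which leaves 1 aorta in each SFD group, the median of the members was -0.00024 on SFD, 0.0428 on HFD and 0.0359 over both diets. On SFD it was 0.0324 with the adipocyte marker mean as a covariate and -0.0816 with the smooth muscle marker mean. Kcnj8 was the only member without overlap between the genotypes, with all 4 KO-HFD aortae (19.9 to 25.2 FPM) above all 4 WT-HFD aortae (16.2 to 18.9 FPM). The summed level of the pericyte markers also did not overlap in these groups, with 2787 to 3540 FPM in KO-HFD and 1947 to 2430 FPM in WT-HFD aortae. Most of it was Rgs5, at 2362 to 3221 FPM and at 1570 to 2029 FPM. The study reports higher Rgs5 expression in KO aortae. For KO against WT on HFD, 0 of 3 tested pericyte markers were called, and the median of their log2 values was 0.01. The sum thus mostly reflects Rgs5 and cannot be read as pericyte content. The part of Rgs5 or of cell content in the Kcnj8 value was not tested. On HFD 4.18% of all genes had no overlap, and on SFD 0 of 9 members had none, against 8.57% of all genes. The log2 fold change of Kcnj8 was 0.30 on HFD (standard error 0.134, 95% CI 0.00 to 0.60, edgeR adjusted p = 0.897) and 0.26 over both diets (95% CI 0.03 to 0.49, edgeR adjusted p = 0.665).

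The other members had KO against WT intervals in the aorta that include 0. Over both diets, the log2 fold change of Itpr1 was 0.01 (95% CI -0.16 to 0.17) and that of Atp2a2 was -0.04 (95% CI -0.25 to 0.16). It was 0.19 for Kcnma1 (95% CI -0.03 to 0.40), 0.08 for Abcc9 (95% CI -0.19 to 0.35) and 0.14 for Cacna1c (95% CI -0.10 to 0.38). Kcnmb1 had 0.10 and Ryr2 -0.12. For Pln, with 33 to 210 counts per library, it was -0.45 with the widest interval (95% CI -1.19 to 0.30). Without WT-SFD replicate 2, the aorta with the high cardiac markers, the value was 0.09 for Pln and 0.05 for Ryr2, both with the sign changed. On library totals in place of TMM factors, the median of all genes moved by 0.291 in KO against WT on SFD and by 0.181 over both diets, the median of the members was 0.419 and 0.277, and the values of Atp2a2 on SFD, on HFD and over both diets, of Ryr2 over both diets and of Abcc9 and Pln on HFD changed sign.

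The interaction, the diet effect in KO minus that in WT, tested whether the diet acted differently in the 2 genotypes. None of the 9 members was called in the aorta, where 0% of all genes were. The values with the widest intervals were those of Pln (0.77, 95% CI -0.73 to 2.26) and Ryr2 (0.51, 95% CI -0.20 to 1.21), both highest in the aorta with the high cardiac markers. Without that library the value was -0.30 for Pln and 0.16 for Ryr2. For Abcc9 it was -0.27 (95% CI -0.81 to 0.28). The median of the members was -0.0117, with 4 above and 5 below 0. Without the 4 fat-rich aortae it was 0.111 with 9 of 9 above 0, among them Abcc9 at 0.04. That setting leaves 1 aorta in each SFD group, so the 9 signs rest on the same SFD aortae and are not separate observations. On library totals in place of TMM factors the median of all genes moved by -0.22, and the median of the members was -0.234 with 2 above and 7 below 0.

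The third comparison was that of the diets in the whole kidney, where Kcnj8 was the member that was called. Kcnj8 was at 17.1, 19.0, 18.4 and 19.3 FPM in WT-SFD and at 10.5, 15.2, 13.8 and 13.7 FPM in WT-HFD kidneys. In KO it was at 16.4, 20.9, 14.5 and 16.9 FPM on SFD and at 14.2, 11.4, 11.0 and 14.3 FPM on HFD. Within each genotype all 4 HFD kidneys lay below all 4 SFD kidneys; in KO the nearest values were 14.3 and 14.5 FPM. Kcnj8 fell on HFD over both genotypes to 0.730 of the SFD level, a log2 fold change of -0.45 (standard error 0.0960, 95% CI -0.66 to -0.24, edgeR adjusted p = 0.00976). The value was -0.48 in WT (edgeR adjusted p = 0.152) and -0.43 in KO (edgeR adjusted p = 0.123), neither past the limit alone. Kcnj8 was the only one of the 9 members called over both genotypes, against 4.62% of all genes called and 1.62% called lower on HFD.

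The promoters of Kcnj8 and of its neighbour Abcc9 are shown because the gene pair encodes the subunits of this channel and lies side by side. Both genes are on the minus strand of chromosome 6, Kcnj8 at chr6:142564837-142571614 and Abcc9 at chr6:142587862-142702315 (GRCm38, GENCODE vM21), 16.2 kb apart. The windows come from RefSeq (GRCm38.p6) and hold 250 bases before the start of the gene and 50 from it on, which are in capitals. They are read on the minus strand, at chr6:142571565-142571864 for Kcnj8 and at chr6:142702225-142702524 for Abcc9.
Kcnj8: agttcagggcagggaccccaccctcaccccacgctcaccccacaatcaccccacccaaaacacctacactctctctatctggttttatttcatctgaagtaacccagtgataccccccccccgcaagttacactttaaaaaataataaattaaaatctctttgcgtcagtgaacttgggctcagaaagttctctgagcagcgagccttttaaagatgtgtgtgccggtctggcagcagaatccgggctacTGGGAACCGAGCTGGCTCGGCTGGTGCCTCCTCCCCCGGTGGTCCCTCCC
Abcc9: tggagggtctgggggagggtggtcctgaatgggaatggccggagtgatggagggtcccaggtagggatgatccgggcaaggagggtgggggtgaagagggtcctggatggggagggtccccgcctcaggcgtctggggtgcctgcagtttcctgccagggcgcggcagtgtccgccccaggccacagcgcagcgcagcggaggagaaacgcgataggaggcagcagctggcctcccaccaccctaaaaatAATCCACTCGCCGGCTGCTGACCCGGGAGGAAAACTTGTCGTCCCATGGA
The G+C content of the window was 53.3% for Kcnj8 and 65.7% for Abcc9, against a median of 52.7% over 32851 windows of this length. The CArG box, the motif of serum response factor found at many smooth muscle genes, was searched on both strands and was in 535 of these windows (1.63%). It was in none of the 9 windows of the 7 members with an entry, which says only that these letters are not in these 300 bases. Itpr1 and Atp2a2 had no window.

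Abcc9 was at 29.8, 13.9, 19.1 and 22.1 FPM in WT-SFD and at 20.6, 12.6, 14.8 and 17.2 FPM in WT-HFD kidneys. In KO it was at 23.1, 18.5, 27.3 and 17.04 FPM on SFD and at 15.7, 14.2, 12.5 and 13.9 FPM on HFD. The diets overlapped in WT and did not overlap in KO. The log2 fold change over both genotypes was -0.49 (standard error 0.146, 95% CI -0.81 to -0.18, edgeR adjusted p = 0.0649), as large as that of Kcnj8 but with a wider interval. DESeq2 called it at an adjusted p of 0.0232. It was -0.38 in WT (edgeR adjusted p = 0.728) and -0.61 in KO (edgeR adjusted p = 0.152). Kcnj8 without overlap in WT stood against 5.01% of all genes tested, and Kcnj8 and Abcc9 in KO against 8.87%. Across the 16 kidneys, which share the diet groups, Pearson's r between Kcnj8 and Abcc9 was 0.30. With the mean of the smooth muscle markers r was 0.282 for Kcnj8 and 0.117 for Abcc9, within -0.252 to 0.323 for the 9 members. The cell type in which Kcnj8 fell cannot be read from whole kidney.

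**Figure D4:**
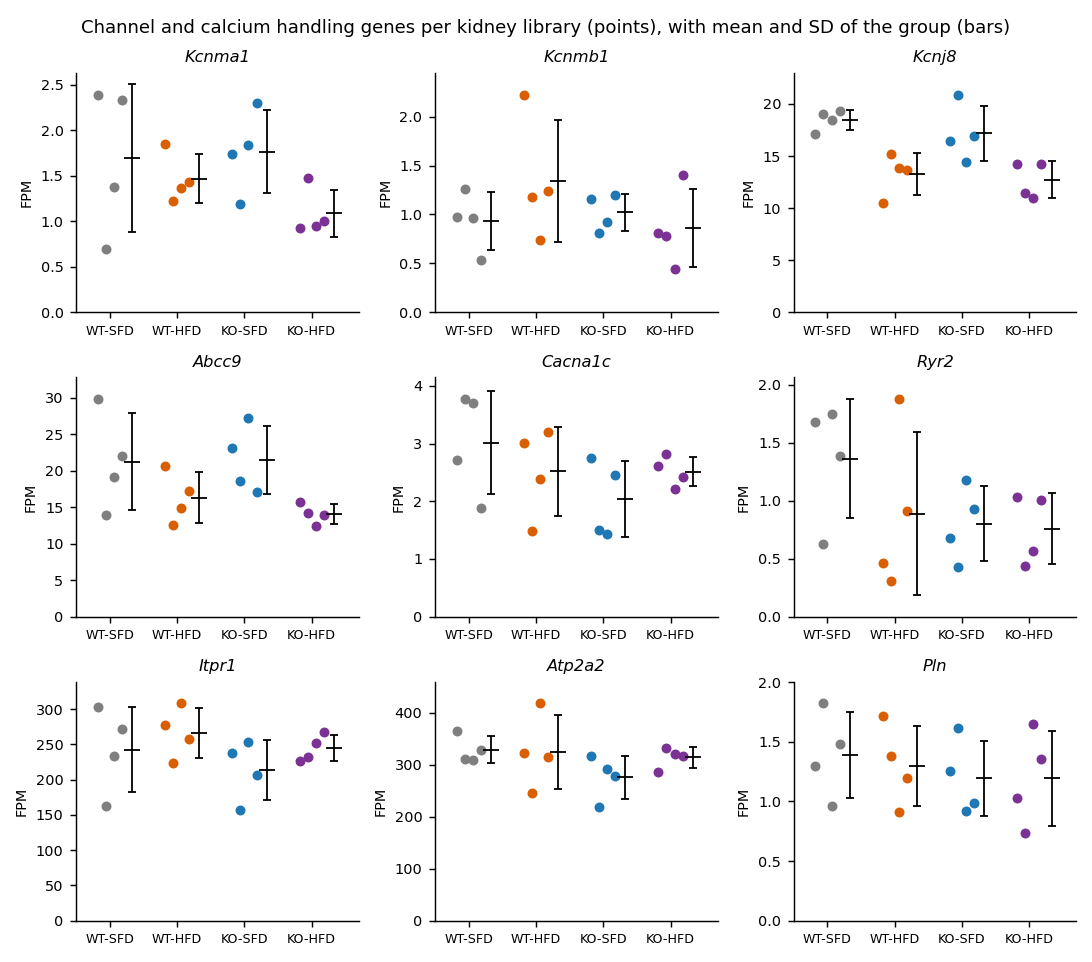
FPM of the 9 genes in each of the 16 kidneys, by genotype and diet, with a point per library and the mean and SD of each group as bars. Kcnj8 is lower on HFD in both genotypes without overlap, and Abcc9 in KO, whereas Kcnma1, Kcnmb1, Cacna1c, Ryr2 and Pln lie at few FPM.

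Cell type markers were set beside this result. The pericyte markers had a summed level of 69.0 to 103 FPM in the kidney, with Pdgfrb the most abundant at 28.0 to 44.1 FPM and Cspg4 listed at 0. None of the 5 tested pericyte markers and none of the 9 tested smooth muscle markers was called on HFD over both genotypes, and their median log2 fold changes were 0.05 and -0.14. With the pericyte marker mean as a covariate the log2 fold change of Kcnj8 was -0.44 (edgeR adjusted p = 0.0223) and with the smooth muscle marker mean it was -0.43 (edgeR adjusted p = 0.0146). With the endothelial marker mean it was -0.45 (edgeR adjusted p = 0.0116). Of the 12 adipocyte markers, which summed to 283 to 1075 FPM in the kidney, 2 were called lower and 1 higher on HFD over both genotypes, with a median log2 fold change of -0.47. With their mean as a covariate the value of Kcnj8 was -0.46 (edgeR adjusted p = 0.0150). For Abcc9 the value was -0.46 with the pericyte marker mean (edgeR adjusted p = 0.105). The markers of the loop of Henle and distal tubule summed to 7506 to 8087 FPM in KO-SFD and to 4292 to 6430 FPM in KO-HFD kidneys, without overlap, and overlapped between the diets in WT (5890 to 7644 FPM on SFD and 5248 to 7107 FPM on HFD). The summed markers of the proximal tubule, collecting duct, glomerulus and renin cells overlapped between the diets in both genotypes. The summed skeletal muscle markers were at 16.5 to 22.8 FPM in KO-SFD and at 31.5 to 76.3 FPM in KO-HFD kidneys. Most of this was Pvalb, at 13.8 to 19.6 FPM and at 28.4 to 74.3 FPM. Pvalb is also in the list of the loop of Henle and distal tubule, so this sum cannot be read as skeletal muscle. The sums did not overlap in KO but did in WT (18.8 to 38.1 FPM on SFD and 35.3 to 53.0 FPM on HFD). The low cardiac sum did not overlap in WT (5.28 to 6.97 FPM on SFD, 4.38 to 5.02 FPM on HFD) but did in KO. The part of tubule content, and of the sources of the skeletal and cardiac muscle sums, in the values of Kcnj8, Abcc9 and Jph2 was not tested.

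The other 7 members did not pass the test in the kidney. None of the 9 was called in WT alone, against 0.964% of all genes, or in KO alone, against 2.39%. Itpr1, at 157 to 308 FPM, had a log2 fold change on HFD of 0.17 over both genotypes (95% CI -0.10 to 0.43), and Atp2a2, at 218 to 418 FPM, one of 0.09 (95% CI -0.13 to 0.30). For the members of low level the intervals were wider. Kcnma1 had -0.44 (95% CI -0.93 to 0.05, edgeR adjusted p = 0.316), Kcnmb1 0.18 (95% CI -0.38 to 0.75) and Cacna1c 0.03 (95% CI -0.40 to 0.45). Ryr2 had -0.41 (95% CI -1.14 to 0.33) and Pln -0.04 (95% CI -0.49 to 0.42). The intervals of Kcnmb1, Cacna1c, Ryr2, Itpr1 and Atp2a2 hold the values measured in the aorta. The median over the 9 members was -0.0362, against -0.00535 over all genes.

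KO against WT in the kidney gave no call among the 9 members on SFD (0.0133% of all genes called), on HFD (0%) or over both diets (0.0133%). All 9 values over both diets were below 0, with a median of -0.174 against 0.00214 over all genes, but no unadjusted p was under 0.05. The log2 fold change was -0.08 for Kcnj8 (95% CI -0.29 to 0.13), -0.10 for Abcc9 (95% CI -0.42 to 0.22) and -0.15 for Atp2a2 (95% CI -0.37 to 0.07). It was -0.50 for Ryr2, -0.28 for Cacna1c, -0.24 for Kcnmb1, -0.19 for Kcnma1, -0.17 for Pln and -0.15 for Itpr1. No member was without overlap between the genotypes on SFD (3.98% of all genes) or on HFD (1.32%). In the interaction 0 of 9 members were called, against 0% of all genes, and the value was 0.05 for Kcnj8 (95% CI -0.37 to 0.47) and -0.23 for Abcc9 (95% CI -0.87 to 0.40).

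**Figure D5:**
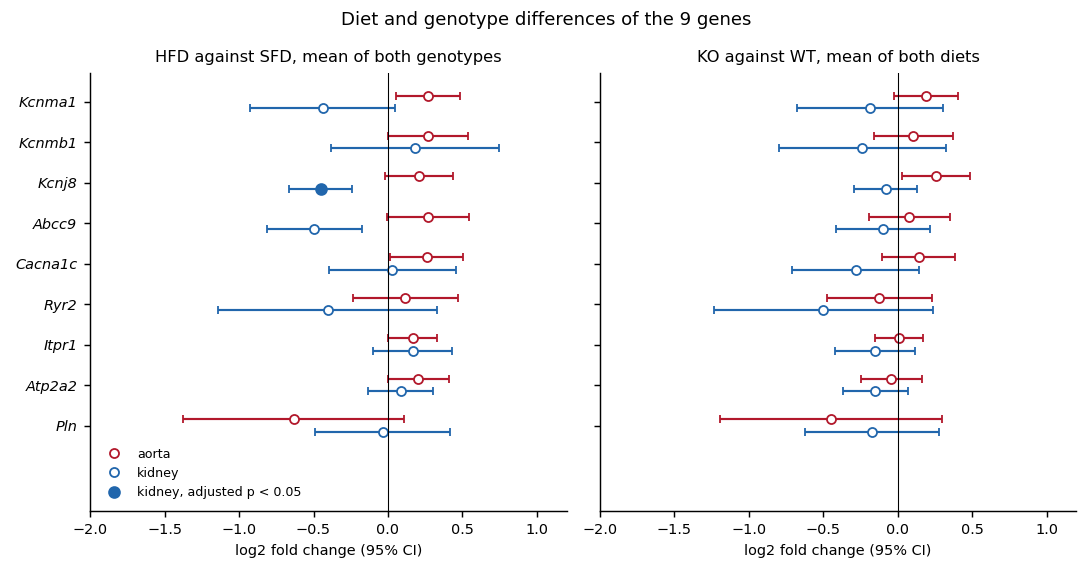
Log2 fold change with its 95% CI of the 9 genes for HFD against SFD (mean of both genotypes) and for KO against WT (mean of both diets), with aorta in red and kidney in blue and a filled point where the adjusted p is under 0.05. Kcnj8 in the kidney on HFD is the single filled point, at -0.45, and in the aorta Kcnj8 and Abcc9 lie at 0.21 and 0.27.

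A wider list of 48 genes from the same processes (14 potassium channels, 15 genes of calcium entry, 15 of calcium stores and 4 of calcium extrusion) was read for comparison, of which 40 were tested in aortae and 38 in kidneys. The most abundant genes of calcium entry, stores and extrusion were Pkd2, Jph2 and Atp2b4 in the aorta and Pkd2, Calr and Atp2b1 in the kidney, and Trpc1, Trpc6 and Sln were listed at 0. On HFD over both genotypes 1 was called higher and 2 lower of 40 in the aorta, against 3.95% of all genes, and 0 in the other 6 aorta comparisons, where 0% to 0.196% of all genes were called. Kcnk3, a background potassium channel, was at 135, 97.6 and 4.33 FPM in WT-SFD, at 102, 23.4 and 4.71 FPM in KO-SFD and at 3.01 to 12.6 FPM in the 8 HFD aortae. It fell on HFD by 2.91 on the log2 scale (edgeR adjusted p = 0.0242), and its high values were in the 4 fat-rich aortae. Without these 4 libraries its value was 0.79 (edgeR adjusted p = 0.846). Itpr2, an inositol trisphosphate receptor, was at 123, 100.1 and 56.3 FPM in WT-SFD, at 104, 51.0 and 58.0 FPM in KO-SFD and at 45.7 to 57.2 FPM on HFD, and fell by 0.67 (edgeR adjusted p = 0.0371). Without the fat-rich aortae its value was -0.16 (edgeR adjusted p = 0.857). Jph2, which tethers the store to the plasma membrane, was at 209, 235 and 285 FPM in WT-SFD, at 226, 275 and 298 FPM in KO-SFD and at 304 to 423 FPM in the 8 HFD aortae, which all lay above the 6 SFD aortae. It rose by a log2 value of 0.43 (edgeR adjusted p = 0.0272) and its value was 0.23 without the fat-rich aortae (edgeR adjusted p = 0.846).

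In the kidney 3 genes of the wider list of 38 were called lower and 2 higher on HFD over both genotypes. Of all genes 4.62% were called and 1.62% were called lower. Of the genes called higher, 1 was a potassium channel and 1 a gene of calcium stores. Jph2 fell here over both genotypes (log2 fold change -0.52, edgeR adjusted p = 0.00613). It was at 5.40 ± 0.322 FPM (mean ± SD, n = 4) on SFD and 3.002 ± 0.367 FPM on HFD in KO, and at 4.11 ± 0.627 FPM and 3.55 ± 0.279 FPM in WT, where the diets overlapped and the value did not pass the test (-0.20, edgeR adjusted p = 0.861). Tmem38a, a cation channel of the store, fell by 0.39 (edgeR adjusted p = 0.00649), and Orai1, the pore of store-operated calcium entry, by 0.43 (edgeR adjusted p = 0.0231). Fkbp1b, a binding protein of ryanodine receptors, rose by 0.64 (edgeR adjusted p = 0.0477). In KO alone 3 of 38 genes were called lower, against 2.39% of all genes called. These were Jph2 (-0.84, edgeR adjusted p = 0.00383), Tmem38a (-0.51, edgeR adjusted p = 0.0186) and Atp2a1, the SERCA1 pump (-1.10, edgeR adjusted p = 0.0489). In the other 5 kidney comparisons 0 of the 38 genes were called, where 0% to 0.964% of all genes were called. Atp2a1 had a mean of only 0.604 FPM, and its value in WT was 0.55 (edgeR adjusted p = 0.688).

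Genes with the pattern most like each member were named by Pearson's r of log2 values over the libraries, among 14047 aorta genes and 13422 kidney genes. Kcnmb1 was most like Msrb3 (0.972), Abcc9 most like Axl (0.967) and Pdgfrb (0.966), and Cacna1c most like Zfp46 (0.955) over the 14 aortae. Itpr1 was most like Pde3a (0.953), a phosphodiesterase of cyclic nucleotides, Kcnma1 most like Ttc28 (0.942), Ryr2 most like Paip2 (0.939), Atp2a2 most like Fgl2 (0.937) and Kcnj8 most like Clip3 (0.917). Pln had the least close match, Akr1e1 (0.853). Over the 10 aortae without the fat-rich ones, r was 0.519 for Atp2a2 with Fgl2, 0.658 for Itpr1 with Pde3a and 0.912 for Kcnj8 with Clip3. Over the 16 kidneys the closest were Timp3 for Itpr1 (0.962), Sipa1l1 for Atp2a2 (0.941), Itih5 for Abcc9 (0.919) and Gm15638 for Kcnj8 (0.909), and those of the low members lay between 0.757 and 0.892. Between Kcnj8 and Abcc9 r was 0.78 over the 14 aortae and 0.27 without the fat-rich ones. These values were picked as the highest of many over libraries that share their groups, so they are a description.

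Some members share their span with other genes. Kcnmb1 (chr11:33963013-33973641) lies inside the span of Kcnip1 on the opposite strand with no shared exon bases, and Kcnip1 was at 0.939 to 3.06 FPM in the aorta. Pln (chr10:53337667-53345987) lies inside the span of Cep85l on the opposite strand, with 141 exon bases (5.11%) in common. Cep85l was at 17.8 to 32.4 FPM in the aorta, where Pln was at 3.47 to 21.5 FPM, and at 0.377 to 1.76 FPM in the kidney. Another transcript on that strand, Gm47644, covers 59.6% of the exon bases of Pln. The strand setting of the counting is not stated, so that part of the Pln count may come from these genes and its values are uncertain. Cacna1c overlaps Dcp1b on the opposite strand, with 0 exon bases in common.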

How the data were processed

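RNA of aortae and kidneys was sequenced by the study. The authors trimmed reads with cutadapt, aligned them with TopHat to mm10 and counted them per gene with featureCounts, per the submitters' processing notes, and deposited raw counts per gene and mouse without normalisation. The study's methods name BiomaRt for the annotation of genes. Not given in the sources used here are the strand setting and how multi-mapping reads were treated. Aorta libraries were depleted of ribosomal RNA. Total counts were 6403699 to 13052870 per aorta (median 8998366) and 16354880 to 28331314 per kidney (median 19544128), which sets the counting error of low genes. Comparison with GENCODE vM21 placed 40254 of 41128 identifiers.

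Groups came from the genotype, diet and tissue in the labels. Counts were scaled by TMM, filtered by filterByExpr and fitted per tissue, all groups together, with edgeR 4.0.16 (glmQLFit, glmQLFTest) in R 4.3.3, with Benjamini-Hochberg adjustment over every gene tested. Calls were made at an adjusted p under 0.05, where the study used 0.001. Standard errors came from the same fit, and 95% intervals from them with the residual degrees of freedom of the design. The comparisons were HFD against SFD in each genotype and averaged, KO against WT on each diet and averaged, and the interaction. The common dispersion was 0.0531 (aorta) and 0.0372 (kidney). FPKM values divide FPM by the merged length of all exons of the gene in GENCODE vM21. Tables and figures were made with Python 3.11.15, pandas 2.3.3, numpy 2.4.6 and matplotlib 3.10.9.

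Named were the 9 members, Egfr, marker genes and genes that overlap a member. Genes like a member were the 2 with the highest Pearson's r of log2 CPM to it (prior count 2, mean CPM of at least 1). At least the first of these is given for each member in the aorta, and in the kidney for Itpr1, Atp2a2, Abcc9 and Kcnj8. Genes of the wider list were picked by an adjusted p under 0.05 or the highest mean of their class. Some results of the wider list are not reported here. The members, lists and tests were chosen with earlier results of these data known. Alternatives were DESeq2 1.42.0, the legacy quasi-likelihood test of edgeR, RLE factors or library totals in place of TMM, fits without the other groups, protein-coding genes only, no filter on low counts, the study's threshold, the smooth muscle or adipocyte marker mean as covariate, leaving out the 4 fat-rich aortae (adipocyte marker mean above a log2 CPM of 4) and leaving out each library. In the kidney, the adipocyte, pericyte and endothelium marker means as covariates were chosen after seeing the data.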

Additional observations from a re-analysis of the deposited data

Results flagged for a closer look

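Among 54 groups of 4 libraries, 4 held a library far from its group by Dixon's criterion, which chance gives in about 1 of 20 groups. Abcc9 was at 394 FPM in WT-HFD aorta replicate 1, where the other 3 of the group were at 463 to 476 FPM. Pln was at 9.33 FPM in WT-HFD aorta replicate 4, with the others at 3.82 to 4.49 FPM, and at 3.47 FPM in KO-HFD aorta replicate 2, with the others at 5.52 to 5.88 FPM. Kcnma1 was at 1.47 FPM in KO-HFD kidney replicate 2, with the others at 0.922 to 1.01 FPM. Pln in the aorta and Kcnma1 in the kidney rest on few counts. Groups of 3 were not examined in this way.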

How the results depend on the processing

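In the kidney on HFD over both genotypes, 1 member was called in the reported fit, 0 at the study's threshold of 0.001, 2 with DESeq2 and 1 to 2 when each library was left out. Abcc9 was the member gained, with DESeq2 (-0.50, adjusted p = 0.0232), without WT-SFD replicate 2 (-0.57, edgeR adjusted p = 0.0245) and without WT-HFD replicate 1 (-0.57, edgeR adjusted p = 0.0493). For HFD in WT kidneys DESeq2 called 1 member, Kcnj8 (-0.48, adjusted p = 0.0433), against 0. Kcnj8 over both genotypes lay at -0.49 to -0.40 with each library left out (edgeR adjusted p = 0.00748 to 0.0219) and at -0.46 to -0.43 in the other alternatives. In the aorta, the count of members called when each library was left out was 0 to 3 for HFD in WT and 0 to 4 over both genotypes. The gain came without WT-SFD replicate 3, where over both genotypes Abcc9 (0.43, edgeR adjusted p = 0.00629), Kcnma1 (0.36, edgeR adjusted p = 0.0134), Cacna1c (0.37, edgeR adjusted p = 0.0171) and Itpr1 (0.23, edgeR adjusted p = 0.0478) were called. Of 3159 alternative values for 126 fold changes, 3148 stayed on the same side of the threshold and 11 passed it. In 62 of the 125 fold changes that were not called the sign changed in some alternative, 9 of them on library totals.

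No paired analysis was possible because the mouse numbers are not shared between the groups of a tissue and the replicate numbers only follow accession order. Limits are the 3 or 4 mice per group, the uneven fat content of the SFD aortae and the low kidney counts of Kcnma1, Kcnmb1, Cacna1c, Ryr2 and Pln.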
